A study of Mus musculus with 13 samples.

Results

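The expression of 10 transcription factors of the primitive streak and early mesoderm was followed in mouse embryonic stem (ES) cells differentiated towards blood. The factors are T (Brachyury), Eomes, Mixl1, Mesp1, Mesp2, Lhx1, Evx1, Gsc, Tbx6 and Cdx2. They were chosen by name, and all 10 were found among the 45250 gene rows of the deposited table. RNAseq libraries came from Flk-1+ haemangioblasts, the mesodermal progenitors isolated from embryoid bodies by their VEGF receptor Flk-1 (3 libraries each of WT, Lmo2-/- and Tal1-/- cells), and from Tie2+ Kit+ CD41- haemogenic endothelium 1 (HE1), the endothelial stage that precedes blood in blast culture (2 libraries each of WT and Lmo2-/- cells). WT cells were the CCB ES line, and each mutant genotype was a single ES line, so genotype and line cannot be told apart. LMO2 is the bridging protein and TAL1 the DNA-binding partner of a blood-specifying complex, and the study asked at which stage LMO2 is needed. GEO lists the 13 libraries under 5 RNA samples, and the study describes the libraries of each group as independent and as biological replicates.

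The primitive streak is the site where pluripotent epiblast cells leave their epithelium and become mesoderm or endoderm. Nodal, WNT and BMP signals switch on T and Eomes, which are T-box factors, together with the homeodomain factors Mixl1, Evx1, Lhx1 and Gsc. Mesp1 and Mesp2 are bHLH factors of nascent mesoderm, Tbx6 is a T-box factor of presomitic mesoderm, and Cdx2 is a caudal homeodomain factor of posterior mesoderm and also of trophoblast. These genes are switched on for a short time, and Flk-1+ cells arise from mesoderm that has expressed them.

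Levels are FPKM, the fragments mapped to a gene scaled by its transcript length and by the size of the library, so that genes can be compared per length. Differences are on the log2(FPKM + 1) scale, from 1 limma fit over 13802 genes and all 13 libraries. A gene was called differentially expressed when its Benjamini-Hochberg adjusted p was below 0.05 and a group in the comparison had a mean FPKM above 10. All 10 factors passed the filter for testing, which asked that 2 or more libraries reach 1 FPKM, so that factors present at 1 stage only entered through that stage. The files hold no fragment counts. The paper gives a minimum number of reads acquired per library, but the number mapped in each library is unknown. For genes of 1 transcript the deposited values moved in steps worth 1 fragment. These steps gave relative depths, which carry the library scaling of the authors. One fragment was worth 3.78 times as much in Lmo2-/- HE1 replicate 1 as in the median of the other 12 libraries, where the ratio lay between 0.596 and 1.57. That library stood apart, with 9694 genes above 0 against 11861 to 15641 in the other libraries, and with 191 of the 4079 genes with a median above 10 FPKM listed at 0 against at most 59. The calls in HE1 that rest on it are named beside the results, with their values without it.

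The labels were checked against markers. Lmo2 was at 25.1 ± 4.99 FPKM (SD, n = 3) in WT and 3.76 ± 2.36 in Lmo2-/- Flk-1+ cells. HE1 libraries carried 4.3 and 20.6 FPKM of Lmo2 where labelled WT and 6.42 and 0 where labelled Lmo2-/-, so Lmo2 did not separate the HE1 libraries and directions in HE1 rest on the labels. Tal1 was at 28.3 ± 8.04 FPKM in WT, 14.1 ± 13 in Lmo2-/- and 3.01 ± 0.352 in Tal1-/- Flk-1+ cells (SD, n = 3). Lmo2 was also low in Tal1-/- Flk-1+ cells, at 0, 7.58 and 1.29 FPKM in replicates 0, 1 and 2. In the paper these cells had background Lmo2 mRNA and no detected LMO2 protein. Comparisons with Tal1-/- cells are thus not of the loss of Tal1 alone. The paper also reports a strong reduction of TAL1 protein in Lmo2-/- Flk-1+ cells. Comparisons of those cells with WT are thus not of the loss of LMO2 alone. Kdr, which encodes Flk-1, was at 252, 100 and 115 FPKM in WT Flk-1+ replicates 0, 1 and 2, at 101 to 151 FPKM in Lmo2-/- and at 86, 77.2 and 68.7 FPKM in Tal1-/- Flk-1+ cells. All Tal1-/- libraries were below all WT libraries in Kdr, by a difference of -0.88 (standard error 0.34, limma adjusted p = 0.731). The 7 endothelial and HE1 marker genes, with Kdr and Itga2b among them, summed to 869 to 1007 FPKM in the HE1 libraries. Their sum was 82.9 to 267 FPKM in the Flk-1+ libraries. Of these markers Emcn was listed at 0 in both Lmo2-/- HE1 libraries. Itga2b, which encodes CD41 and should be low in CD41- cells, went against the label. It was at 15.4 and 10.4 FPKM in WT HE1 and 19.8 and 0 in Lmo2-/- HE1, against at most 5.54 in Flk-1+ cells.

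Promoters are shown for T, Eomes and Lhx1, which were lower without overlap in Tal1-/- Flk-1+ cells, for Cdx2, which was higher, and for Mesp1, the one promoter with a LEF and TCF match. RefSeq promoters on GRCm38.p6 were matched by symbol for 9 of the 10 factors, and not for Mixl1. Each holds 250 bases before and 50 after the annotated start. The stretch before the start is printed for T at chr17:8434173-8434422 on the plus strand, Eomes at chr9:118477939-118478188 on the plus strand, Lhx1 at chr11:84525535-84525784 on the minus strand, Cdx2 at chr5:147307250-147307499 on the minus strand, and Mesp1 at chr7:79793591-79793840 on the minus strand. Capitals mark a match to a searched motif.
T: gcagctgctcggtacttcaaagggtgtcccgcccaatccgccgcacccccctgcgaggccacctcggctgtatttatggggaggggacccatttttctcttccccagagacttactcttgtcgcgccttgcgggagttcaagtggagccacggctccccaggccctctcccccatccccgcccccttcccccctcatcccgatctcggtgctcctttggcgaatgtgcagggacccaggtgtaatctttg
Eomes: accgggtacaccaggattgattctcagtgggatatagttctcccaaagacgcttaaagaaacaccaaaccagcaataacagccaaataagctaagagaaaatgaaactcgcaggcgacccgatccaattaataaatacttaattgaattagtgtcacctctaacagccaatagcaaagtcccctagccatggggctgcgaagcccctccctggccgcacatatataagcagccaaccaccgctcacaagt
Lhx1: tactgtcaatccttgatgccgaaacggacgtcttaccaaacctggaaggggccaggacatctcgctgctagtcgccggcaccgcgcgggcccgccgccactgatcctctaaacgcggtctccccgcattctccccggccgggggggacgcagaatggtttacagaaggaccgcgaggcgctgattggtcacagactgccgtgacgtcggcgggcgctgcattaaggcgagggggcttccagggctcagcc
Cdx2: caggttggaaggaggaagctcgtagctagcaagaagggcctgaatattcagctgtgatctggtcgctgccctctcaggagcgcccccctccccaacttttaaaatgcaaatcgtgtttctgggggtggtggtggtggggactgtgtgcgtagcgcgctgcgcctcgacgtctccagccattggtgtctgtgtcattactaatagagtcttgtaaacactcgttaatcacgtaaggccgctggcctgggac
Mesp1: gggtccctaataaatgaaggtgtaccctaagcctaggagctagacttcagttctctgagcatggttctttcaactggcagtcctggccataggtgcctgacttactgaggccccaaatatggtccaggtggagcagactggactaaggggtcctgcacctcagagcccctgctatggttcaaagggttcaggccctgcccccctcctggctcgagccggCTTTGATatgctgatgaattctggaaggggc

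The letters searched on both strands were GGTGTGA for T-box factors, CTTTGAT for LEF and TCF, TGTNNATT for FOXH1, CAGATG for TAL1 E-boxes, AGATAA for GATA factors and TATAAA for the TATA box, and no matches in these promoters overlapped. The promoters of T, Eomes, Lhx1, Cdx2 and Evx1 held none of them. Mesp1 held CTTTGAT, whose first base lies 31 bases before the start, and the reverse complement of GGTGTGA, which begins at base 6 after the start and so lies outside the printed stretch. CAGATG was present in 2 of the 9 promoters, Mesp2 and Gsc, against 17.2 percent of all 32851 RefSeq promoters of this length. TATAAA was present in 2 of 9, Tbx6 and Gsc, against 13.6 percent. TGTNNATT was present in Mesp2 alone, against 12.2 percent, and AGATAA in none, against 11.2 percent. The LEF and TCF letters were present in 3.73 percent of all promoters and the T-box letters in 3.98 percent. These are matches of letters in a short window and not binding sites.

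In WT Flk-1+ cells, 4 factors were abundant and 5 were scarce. Eomes, which opens mesoderm and endoderm programmes in the streak, was at 113 ± 13.1 FPKM (SD, n = 3), T at 81.3 ± 39.4, Lhx1 at 66.9 ± 11.3 and Mixl1 at 61.3 ± 52.9. Each overlapped its neighbour in this order, although every Eomes library was above every Lhx1 library. Evx1 followed at 13.1 ± 7.15 FPKM, below every library of Mixl1 and above every library of Mesp1. The nascent mesoderm factors were low, with Mesp1 at 4.19 ± 1.75, Tbx6 at 3.22 ± 2.05 and Mesp2 at 1.58 ± 0.757 FPKM. Gsc, an organiser and anterior streak factor, averaged 0.366 FPKM and was listed at 0 in 2 of 3 libraries. Cdx2 was the lowest at 0.159 FPKM, and its values in WT replicates 0, 1 and 2 correspond to 1, 0 and 4 fragments.

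**Figure D1:**
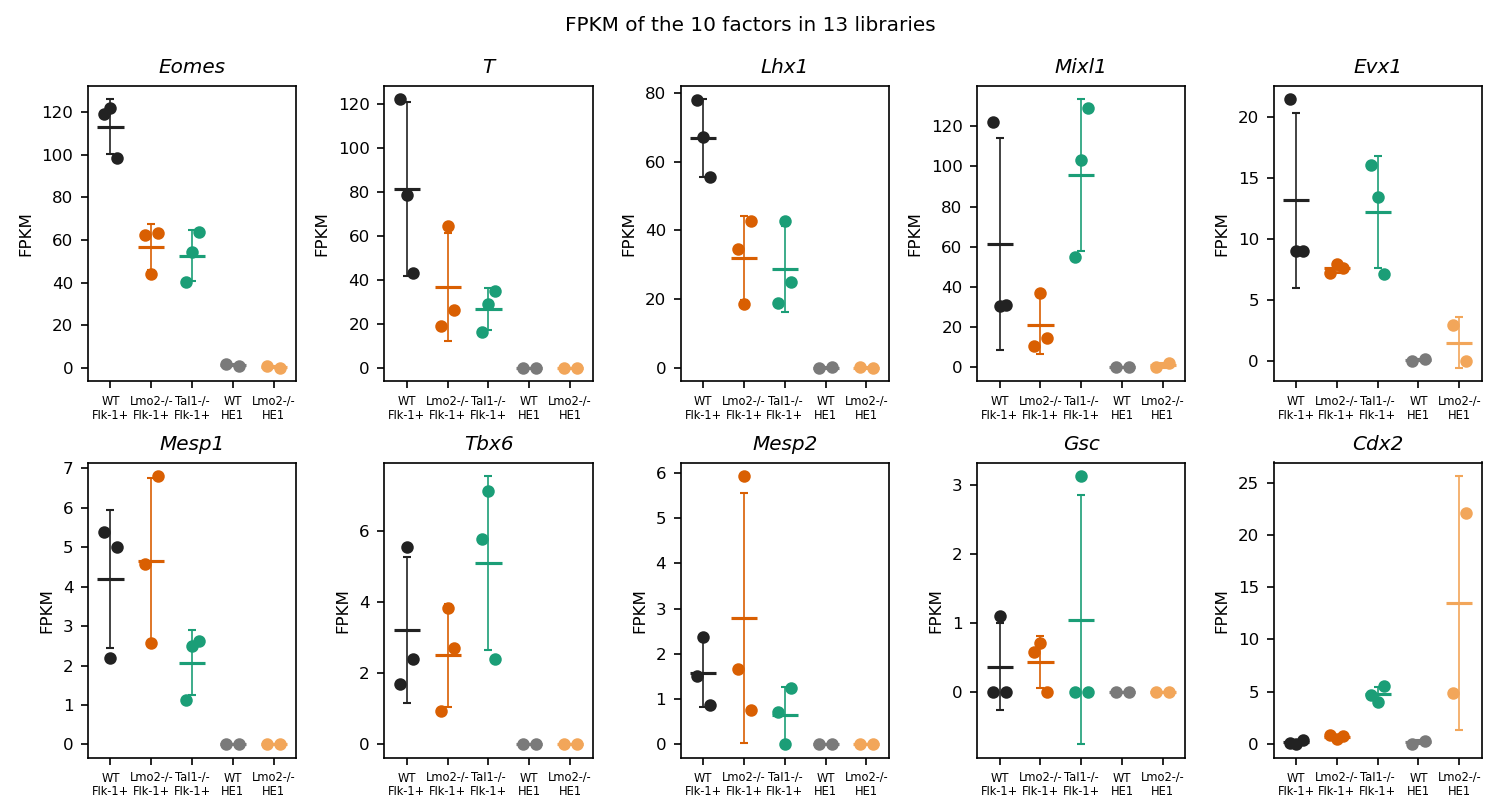
FPKM (linear axes, 1 panel a gene) of the 10 factors in the 13 libraries by group. Points are libraries, horizontal lines are group means and vertical lines are SDs. The 3 WT Flk-1+ libraries lie above all Lmo2-/- and Tal1-/- libraries for Eomes and Lhx1, 9 factors are at 2.93 FPKM or below in all HE1 libraries, and Cdx2 is at 4.03 to 5.53 FPKM in Tal1-/- Flk-1+ cells and at 4.87 and 22.1 FPKM in Lmo2-/- HE1.

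Lmo2-/- Flk-1+ cells were first compared with WT Flk-1+ cells. The abundant streak factors had lower levels in Lmo2-/- cells, but limma called none. The paper tested these RNAseq data with Cuffdiff, and it counts T and Eomes among the regulators that were down-regulated in these mutant cells. Its stated criterion was a Cuffdiff p below 0.05 with FPKM above 10 in a sample, with no adjustment named. This differs from the adjusted p asked of a call here. The paper also measured Eomes by qPCR, which was not compared here. Eomes was at 119, 122 and 98.3 FPKM in WT replicates 0, 1 and 2 and at 62.2, 44.2 and 63.4 FPKM in the Lmo2-/- replicates. The groups did not overlap, and the difference was -1.0 (standard error 0.32, limma adjusted p = 1). Lhx1, a LIM homeodomain factor of the streak and its anterior derivatives, was at 78, 67.2 and 55.5 FPKM in WT and at 34.7, 18.6 and 42.8 FPKM in Lmo2-/- cells. It also did not overlap between genotypes, with a difference of -1.10 (standard error 0.39, limma adjusted p = 1). As these are bulk samples, fewer cells that express a gene and less RNA per cell cannot be told apart.

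T was at 122, 78.8 and 43.3 FPKM in WT and at 19.2, 64.6 and 26.2 FPKM in Lmo2-/- Flk-1+ cells. Lmo2-/- replicate 1 lay within the WT range, and the difference was -1.20 (standard error 0.49). Mixl1, a homeodomain factor needed for the balance of mesoderm and endoderm, was at 122, 30.6 and 30.9 FPKM in WT and at 10.9, 37 and 14.7 FPKM in Lmo2-/- cells. WT replicate 0 was 3.99 times the lowest WT library, the groups overlapped, and the difference was -1.38 (standard error 0.61). Without WT replicate 0 the Mixl1 difference was -0.72.

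Evx1, a target of WNT and BMP signals in the posterior streak, was at 21.4, 8.96 and 9.02 FPKM in WT and at 7.16, 7.93 and 7.55 FPKM in Lmo2-/- Flk-1+ cells. All Lmo2-/- libraries were below the WT libraries, by a difference of -0.61 (standard error 0.54) that was -0.23 without WT replicate 0. The antisense gene Evx1os overlaps Evx1 on the opposite strand. The library kit was strand-specific, but the strand setting of the counting is not given in the sources used here, so it is uncertain whether the reads of the pair were separated. Evx1os itself was at 19.2, 28.5 and 14.7 FPKM in WT and at 12.2, 11.9 and 11.8 FPKM in Lmo2-/- cells, again with no overlap. The antisense gene Gm33460 overlaps Eomes, with the same uncertainty.

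Cdx2 differed the other way, with 0.814, 0.505 and 0.749 FPKM in the Lmo2-/- libraries against 0.107, 0 and 0.369 FPKM in WT. These are 8, 4 and 7 fragments against 1, 0 and 4, and the difference of 0.55 had a standard error of 0.48. Mesp1 was at 5.39, 2.18 and 5 FPKM in WT and 4.56, 2.58 and 6.8 FPKM in Lmo2-/- cells, which overlap. Mesp2, Tbx6 and Gsc also overlapped, with differences of 0.35, -0.26 and 0.12 and standard errors of 0.50, 0.50 and 0.51.

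By limma, 0 of 10 factors and 0 percent of the genes tested were called between Lmo2-/- and WT Flk-1+ cells. The targeted gene Lmo2 was itself not called, at a difference of -2.55, so the lack of a call does not show an unchanged level. An unadjusted p below 0.05 was reached by 4 factors (T, Eomes, Mixl1 and Lhx1), against 2.22 percent of all genes. Libraries did not overlap for 3 factors that were lower, against 4.22 percent of all genes, and for 1 that was higher, against 3.99 percent. The median difference was -0.43 over the 10 factors and -0.01 over all genes. Between 3 and 3 libraries an exact permutation test cannot give a p below 0.10.

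In Tal1-/- Flk-1+ cells T, Eomes and Lhx1 were also lower than in WT, Mixl1 was not, and Cdx2 was higher. Eomes was at 40.1, 54.3 and 63.6 FPKM in the Tal1-/- libraries, a difference of -1.11 from WT (standard error 0.32, limma adjusted p = 0.498). T was at 16.4, 29.1 and 35.2 FPKM, with a difference of -1.50 (standard error 0.49, limma adjusted p = 0.624). Lhx1 was at 18.8, 42.7 and 24.9 FPKM, with a difference of -1.25 (standard error 0.39, limma adjusted p = 0.589). In these 3 genes every Tal1-/- library was below every WT library, as it was in Kdr, the gene of the receptor used to isolate the cells, and the part of Kdr in these differences was not tested.

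Cdx2 was at 4.64, 4.03 and 5.53 FPKM in Tal1-/- Flk-1+ cells, which correspond to 46, 36 and 63 fragments. No WT library exceeded 4 fragments, and the difference of 2.31 (standard error 0.48, 95% confidence interval 1.28 to 3.34) had a limma adjusted p of 0.163. Over the alternative settings this adjusted p ranged from 0.0262 with array weights to 0.665 without WT replicate 1, and with a mean of 4.74 FPKM the gene could not meet the level asked of a call. Its family relatives Cdx1 and Cdx4, which share its homeodomain, were at a mean of 0.077 and 1.13 FPKM in the Tal1-/- libraries. Cdx4 averaged 0.0716 FPKM in WT and 0.867 FPKM in Lmo2-/- Flk-1+ cells. Cdx4 was thus also higher than WT, by 0.85 in Tal1-/- cells with overlap and by 0.76 in Lmo2-/- cells without overlap, neither called.

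Mixl1 was at 54.9, 103 and 129 FPKM in Tal1-/- Flk-1+ cells, within and above the WT range, with a difference of 0.87 (standard error 0.61). That difference was 1.52 without WT replicate 0, and 0.54 and 0.55 without WT replicates 1 and 2. Evx1 was at 16, 13.4 and 7.1 FPKM and overlapped WT, with a difference of -0.06. Tbx6 was at 5.79, 7.14 and 2.4 FPKM, a difference of 0.55, and Mesp1 at 1.12, 2.49 and 2.61 FPKM, a difference of -0.73. Mesp2 and Gsc were below 4 FPKM in every Tal1-/- library, and a single library with 15 fragments made up the Gsc signal.

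By limma, 0 of 10 factors were called between Tal1-/- and WT Flk-1+ cells, as were 0 percent of all genes. The targeted gene Tal1 was itself not called, at a difference of -2.84. An unadjusted limma p below 0.05 was reached by 4 factors (T, Eomes, Lhx1 and Cdx2), against 6.11 percent of all genes. Libraries did not overlap for 3 lower factors, against 7.4 percent of all genes, and for 1 higher factor, against 5.25 percent. Both mutants were set against the same 3 WT libraries and both were low in Lmo2, so the likeness of their differences is not independent.

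**Figure D2:**
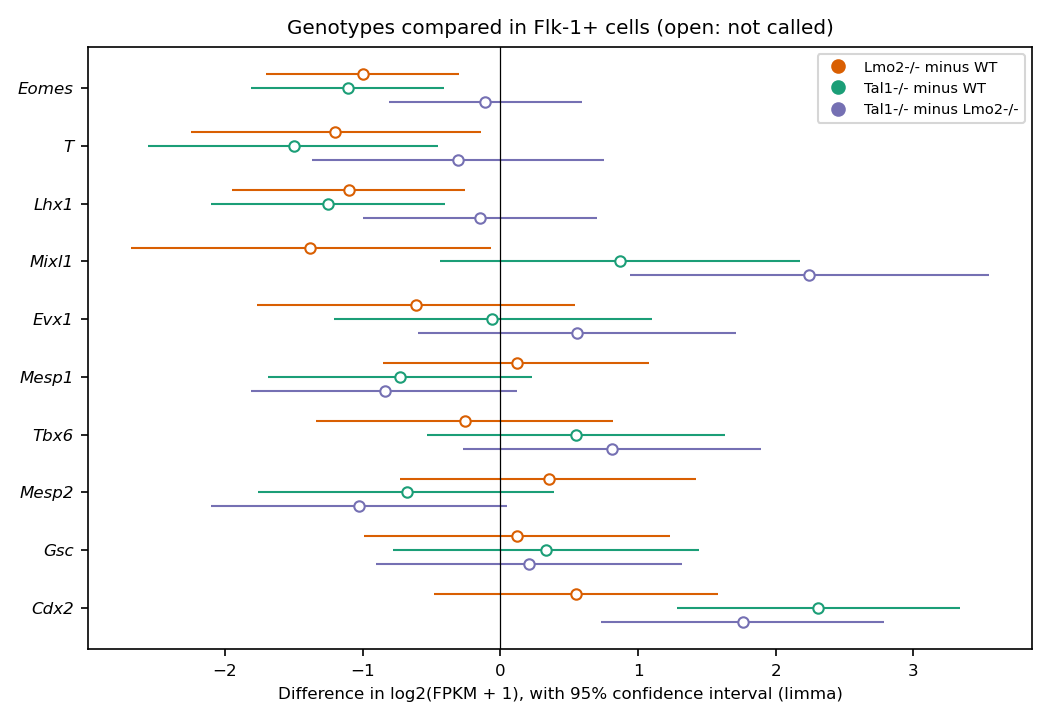
Differences in log2(FPKM + 1) of the 10 factors between genotypes in Flk-1+ cells (horizontal axis), with 95% confidence intervals from limma; each gene has 3 comparisons and open points are not called. Eomes, T and Lhx1 lie between -1.50 and -1.0 in both mutants against WT, while Mixl1 and Cdx2 are at 2.24 and 1.76 in Tal1-/- against Lmo2-/-.

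Set directly against each other, the mutants differed most in Mixl1 and Cdx2. Mixl1 was higher in every Tal1-/- library than in any Lmo2-/- library, by 2.24 (standard error 0.61, limma adjusted p = 0.514). Cdx2 was higher without overlap by 1.76 (standard error 0.48, limma adjusted p = 0.514). The T, Eomes and Lhx1 libraries overlapped, with differences of -0.31 (95% confidence interval -1.37 to 0.75), -0.11 (-0.81 to 0.59) and -0.15 (-1.0 to 0.70). By limma, 0 of 10 factors were called, against 0.0145 percent of all genes, and 2 had an unadjusted p below 0.05, against 5.96 percent. The 2 factors without overlap were both higher in Tal1-/- cells, which was so for 6.59 percent of all genes.

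Between Flk-1+ cells and HE1 the abundant streak factors fell. In WT cells 5 of 10 factors were called, all lower in HE1, against 6.98 percent of all genes called and 0.942 percent called lower, and the median difference was -2.97 over the factors and 0.11 over all genes. Eomes was at 1.64 and 0.811 FPKM in the WT HE1 libraries, a difference of -5.70 (standard error 0.36, limma adjusted p = 4.12e-06). Lhx1 was at 0 and 0.136 FPKM, with a difference of -5.98 (standard error 0.44, limma adjusted p = 7.83e-06). T was listed at 0 in both WT HE1 libraries, with a fitted difference of -6.24 (limma adjusted p = 2.82e-05) that depends on the pseudocount and was -9.55 with a pseudocount of 0.1. Mixl1 was also listed at 0 in both, with a fitted difference of -5.64 (limma adjusted p = 0.000243). Evx1 was at 0 and 0.115 FPKM, with a difference of -3.63 (limma adjusted p = 0.00195), and it lost the call without WT Flk-1+ replicate 0, where its mean level no longer reached 10 FPKM.

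Mesp1, Mesp2, Tbx6 and Gsc were listed at 0 in all 4 HE1 libraries. Mesp1 and Tbx6 had adjusted p-values of 0.0104 and 0.0414 by limma in the WT comparison but stayed below the FPKM criterion, and Mesp2 and Gsc had adjusted p-values of 0.165 and 0.756. Cdx2 was near 0 at both WT stages, with 0 and 2 fragments in the WT HE1 libraries. Genes that are at 0 may be below the depth of these libraries rather than absent.

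In Lmo2-/- cells the same step called 4 factors lower, against 2.38 percent of all genes called lower, and Cdx2 higher, against 17.2 percent called higher and 19.6 percent called in all. The median difference was -2.27 over the factors and 0.30 over all genes. Eomes was at 0.599 and 0 FPKM in Lmo2-/- HE1, a difference of -5.49 (standard error 0.36, limma adjusted p = 3.31e-06). T was listed at 0 in both libraries, and Lhx1 was at 0.12 and 0 FPKM, with fitted differences of -5.05 and -4.89. Mixl1 was at 0.126 and 1.98 FPKM, which are 1 and 5 fragments, with a difference of -3.39 (limma adjusted p = 0.00339). Without Lmo2-/- HE1 replicate 1 these 4 factors were still called, at -5.15 for Eomes, -5.05 for T, -4.80 for Lhx1 and -4.10 for Mixl1. Evx1 was at 2.93 and 0 FPKM, with a difference of -2.11 (limma adjusted p = 0.0212), and its mean stayed below 10 FPKM at both stages.

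Cdx2 was the only one of the 10 factors called higher in HE1. It was at 4.87 and 22.1 FPKM in Lmo2-/- HE1 replicates 0 and 1, against at most 0.814 FPKM in the Lmo2-/- Flk-1+ libraries, and the difference was 2.79 (standard error 0.53, limma adjusted p = 0.00267). The values correspond to 38 and 55 fragments, so the 2 libraries held more similar numbers of fragments than their FPKM show. Without replicate 1, the library that stood apart, the difference was 1.80 with an adjusted p of 0.0219, and the level of 4.87 FPKM fell short of the call. Rescaling all libraries to a common median also ended the call, at 1.92 and an adjusted p of 0.0126.

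**Figure D3:**
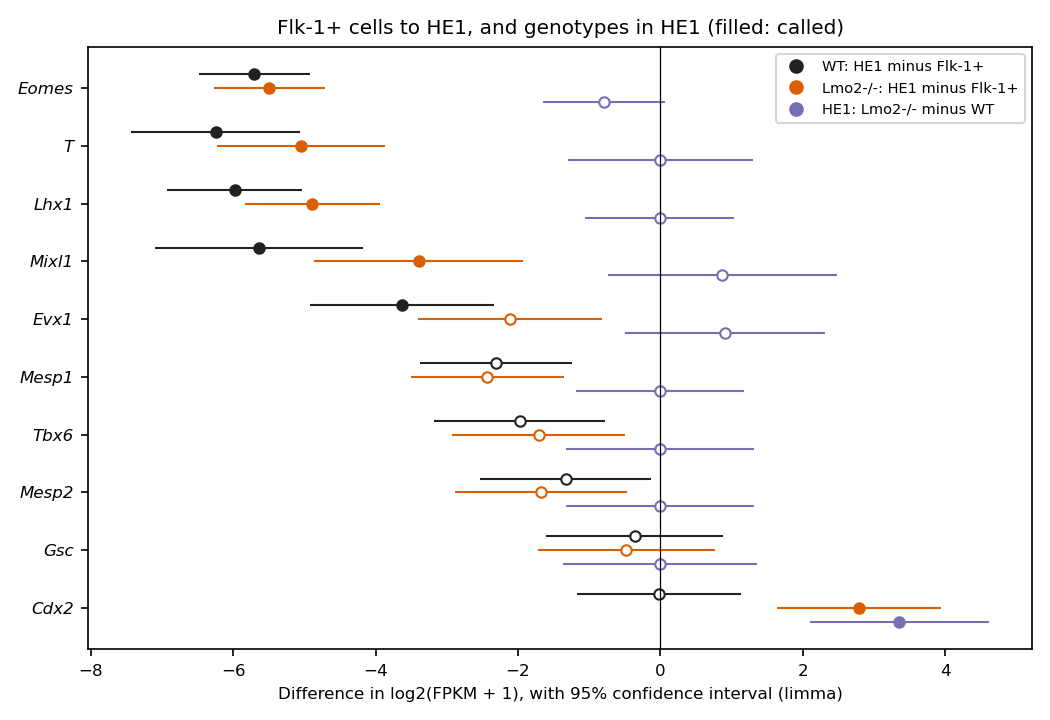
Differences in log2(FPKM + 1) of the 10 factors (horizontal axis) from Flk-1+ cells to HE1 in WT and in Lmo2-/- cells, and from WT to Lmo2-/- in HE1, with 95% confidence intervals from limma; filled points are called. Eomes, T, Lhx1 and Mixl1 fell in both genotypes by 3.39 or more, and Cdx2 is the only gene with filled points to the right of 0, at 2.79 and 3.36.

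When the genotypes were compared within HE1, 1 of 10 factors was called, against 3.01 percent of all genes and 2.15 percent called higher. This was Cdx2, at 0 and 0.291 FPKM in WT and 4.87 and 22.1 FPKM in Lmo2-/- HE1, a difference of 3.36 (standard error 0.58, limma adjusted p = 0.00753). Both Lmo2-/- libraries were above both WT libraries in FPKM and in fragments, 38 and 55 against 0 and 2. The call was lost without Lmo2-/- HE1 replicate 1 (2.37, adjusted p = 0.0396, with too low a mean level), without WT HE1 replicate 0 (3.17, adjusted p = 0.0833), with only the HE1 libraries in the fit (adjusted p = 0.408), with array weights (adjusted p = 0.0545) and with a common median (2.57, adjusted p = 0.0169). An exact permutation test of 2 against 2 libraries cannot give a p below 0.333. Eomes was lower in Lmo2-/- HE1 by 0.79 on the log2 scale with both groups under 2 FPKM, and Evx1 and Mixl1 differed by 0.91 and 0.87, neither called.

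An interaction term asked whether the step to HE1 differed between WT and Lmo2-/- cells. By limma, 0 of 10 factors were called, against 0.348 percent of all genes. An unadjusted p below 0.05 was reached by 2 of 10 factors and by 1672 of all 13802 genes. These factors were Cdx2 with 2.81 (standard error 0.75, limma adjusted p = 0.141) and Mixl1 with 2.25 (standard error 0.96, limma adjusted p = 0.361). Without Lmo2-/- HE1 replicate 0 the Cdx2 interaction was 3.80 and was called. In that fit Lmo2-/- HE1 was represented by replicate 1 alone, the library that stood apart. Without replicate 1 the Cdx2 interaction was 1.82.

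The signals that induce the streak, and their direct responses, shared part of this pattern. Of 14 such genes 11 were tested. In WT cells 3 were called lower in HE1, against 0.942 percent of all genes called lower, and 0 were called higher. The median difference was -2.09 against 0.11 over all genes. Tdgf1, the co-receptor for Nodal, was at 51.6 ± 11.2 FPKM in WT Flk-1+ cells and between 0 and 0.172 FPKM in WT HE1 (difference -5.58). Its pseudogene Tdgf1-ps1 may share reads with it. The WNT feedback gene Axin2 and the WNT effector Lef1 fell by 3.94 and 3.14 on the log2 scale. The Lef1 call was lost without WT HE1 replicate 1 (-2.00) and without WT Flk-1+ replicate 0 (-2.56) or 1 (-3.04). In the Lmo2-/- step the median of the list was -0.92 against 0.30. Tdgf1 and Lef1 were called lower in that step, by -4.55 and -2.51, against 2.38 percent of all genes called lower. Both calls were kept without Lmo2-/- HE1 replicate 1 (-4.55 and -3.63), while that of Lef1 was lost without Lmo2-/- HE1 replicate 0 (-1.38) and without Lmo2-/- Flk-1+ replicate 1 (-2.02) or 2 (-2.51). In Flk-1+ cells Tdgf1 was at 24.1 ± 11.7 FPKM in Lmo2-/- and 19.1 ± 5.9 in Tal1-/- cells (SD, n = 3), below all WT libraries in both, and was not called. The WNT inhibitor Dkk1 was at 12.7 ± 7.46 FPKM in Tal1-/- against 2.44 ± 1.1 in WT cells, without overlap and not called. Wnt3 itself, which is needed to form the streak, was at 7.03, 6.99 and 7.94 FPKM on average in WT, Lmo2-/- and Tal1-/- Flk-1+ cells. Between Lmo2-/- and WT HE1 the list median was 0.45 against 0.15. Bmp4 was at 32.9 and 235 FPKM in the Lmo2-/- HE1 libraries and 9.43 and 11.8 in WT HE1. Bmp4 and Axin2 were called higher in Lmo2-/- HE1, by 2.95 and 2.68, against 2.15 percent of all genes called higher. Neither was called without Lmo2-/- HE1 replicate 1, at 1.56 for Bmp4 and 2.03 for Axin2 (limma adjusted p = 0.189 and 0.123). Both calls were also lost with array weights (limma adjusted p = 0.155 and 0.144), with either WT HE1 library left out, and with only the HE1 libraries in the fit, where 0 of 11014 genes were called by limma and 1276 had an unadjusted p below 0.05.

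Of 14 genes of mesoderm after the streak 9 were tested. In Lmo2-/- against WT HE1, 3 (Pdgfra, Hand1 and Tbx20) were called higher, against 2.15 percent of all genes called higher. The median was 1.13 against 0.15 over all genes. Hand2, a bHLH factor related to Hand1, lay the other way without overlap, at 6.47 FPKM on average against 11.4 (difference -0.75, not called), and Gata6, Isl1 and Snai1 overlapped. Pdgfra, the receptor that marks paraxial and cardiac mesoderm, was at 37.3 and 94.5 FPKM against 1.01 and 2.98 FPKM (difference 4.42). Hand1, a bHLH factor of lateral and extraembryonic mesoderm, was at 117 and 210 FPKM against 2.96 and 17.7 FPKM (difference 4.20), and the cardiac T-box factor Tbx20 at 116 and 190 FPKM against 23.5 and 32.5 FPKM (difference 2.39). Without Lmo2-/- HE1 replicate 1 the differences were 3.76, 3.77 and 2.74, and the call of Hand1 was lost (limma adjusted p = 0.0523). Without WT HE1 replicate 1 those of Hand1 (3.08) and Tbx20 (2.16) were lost, and with array weights that of Pdgfra alone was kept. With only the HE1 libraries in the fit none of the 3 was called (limma adjusted p = 0.395 for each). In the WT step Snai1, Pdgfra and Hand1 were called lower, by -4.46, -3.39 and -3.25, against 0.942 percent of all genes called lower. The call of Hand1 was lost without WT HE1 replicate 1 (-2.13). In the Lmo2-/- step Snai1, the zinc finger factor of streak cells leaving the epithelium, was called lower by -3.09 and Tbx20 higher by 1.66. Of all genes, 2.38 percent were called lower and 17.2 percent higher in that step. Without Lmo2-/- HE1 replicate 1 Snai1 was at -1.80 and not called and Tbx20 at 2.01 and called, and with a common median Tbx20 was at 0.66 and not called. None of the 9 was called between the Flk-1+ groups.

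Since Cdx2 is also a trophoblast factor, 7 trophoblast genes were listed. Elf5, Krt7 and Tpbpa were listed at 0 in all 13 libraries. The keratin Krt8, which many epithelia also express, was at 20.9 and 79.3 FPKM in Lmo2-/- HE1 and 5.37 and 9.81 FPKM in WT HE1. It was called higher (difference 2.34), against 2.15 percent of all genes called higher, and was the only call in this comparison among the 3 genes tested. This call was lost without Lmo2-/- HE1 replicate 1 (1.40), without either WT HE1 library (2.72 and 1.96), with a common median (1.80), with array weights (limma adjusted p = 0.179) and with only the HE1 libraries in the fit (limma adjusted p = 0.411). The summed level of the 7 genes was 41.7 to 125 FPKM in Lmo2-/- HE1, 14.4 to 26.6 in WT HE1 and 17.7 to 60.9 over the Flk-1+ libraries. Krt8 and Gata3 made up most of this sum. Gata3 was at 18.8 and 45.3 FPKM in Lmo2-/- HE1 and 16.8 and 8.99 FPKM in WT HE1 (difference 1.18, not called). The summed level of 4 smooth muscle genes was 323 to 840 FPKM in Lmo2-/- HE1 and 169 to 216 FPKM in WT HE1, and none of the 3 that were tested was called. Acta2, a smooth muscle actin, made up most of the sum, at 263 and 816 FPKM against 165 and 114 (difference 1.75, limma adjusted p = 0.095), while Tagln averaged 41.6 against 52.1 FPKM. The part of these genes in the Cdx2 difference was not tested.

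Of 22 family relatives of the factors 11 were tested and 7 to 14 were listed at 0 throughout a group. In the Lmo2-/- step Mga, a T-box factor that partners MAX, and Tbx20 were called higher (1.68 and 1.66) and Tbx3 lower (-1.29). Of all genes, 17.2 percent were called higher and 2.38 percent lower in this step. Tbx20 was the single call between the HE1 groups, where 3.01 percent of all genes were called. Without Lmo2-/- HE1 replicate 1 neither Mga (1.51) nor Tbx3 (-0.66) was called, a common median ended the call of Mga (0.67), Mga also lost it without Lmo2-/- Flk-1+ replicate 2 (1.56), and Tbx3 without any 1 of the Lmo2-/- Flk-1+ libraries. The definitive endoderm genes, which Eomes and Mixl1 also serve in the streak, had 5 of 7 tested. Cxcr4 was called lower in both steps (-4.55 and -4.06), and Sox17 in WT (2.50) and Hhex in Lmo2-/- cells (2.87), which endothelium also expresses, were called higher. Of all genes, 6.98 percent were called in the WT step and 19.6 percent in the Lmo2-/- step. Cxcr4 (-3.36) and Hhex (3.01) kept their Lmo2-/- calls without Lmo2-/- HE1 replicate 1. With a common median Sox17 (2.08) and Hhex (1.99) lost theirs, and Sox17 also lost it without WT HE1 replicate 1 (1.83) and without WT Flk-1+ replicate 1 (2.21) or 2 (2.60). Among 8 pluripotency genes 4 were tested. Pou5f1 was at 10.3 ± 2.95 FPKM in WT Flk-1+ cells and was listed at 0 in all 4 HE1 libraries, with a call in the WT step (-3.47) that was lost without WT Flk-1+ replicate 1 (-3.27). Cardiac and blood markers did not exceed 23.5 and 1.55 FPKM in sum, with Myl7 called lower in the Lmo2-/- step (-2.92), a call lost without Lmo2-/- HE1 replicate 1 (-2.16) or Lmo2-/- Flk-1+ replicate 1 (-2.47).

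**Figure D4:**
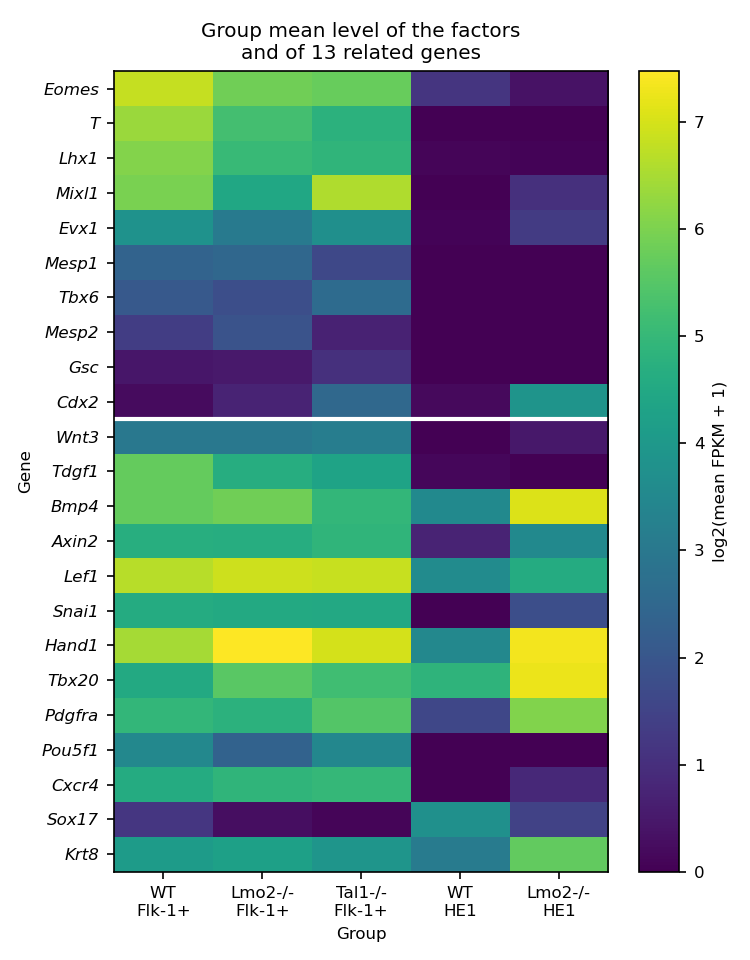
Colour gives log2(mean FPKM + 1) per group (columns) for the 10 factors (above the white line) and 13 related genes (below it). The abundant factors are bright in the 3 Flk-1+ columns and dark in HE1, and Cdx2, Bmp4, Hand1, Tbx20 and Pdgfra are brighter in Lmo2-/- HE1 than in WT HE1.

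For each factor with a mean above 10 FPKM in a group, the genes most like it in pattern were sought among 7282 genes. The measure was Pearson r of log2(FPKM + 1). Cdx2 met this level only through Lmo2-/- HE1 and did not exceed 5.53 FPKM in the Flk-1+ libraries. Over the 9 Flk-1+ libraries, which share stage and differ in genotype and depth, Eomes was most like Epb41l2 (r = 0.968) and the ETS factor Fli1 (r = 0.954), T most like Nfatc1 (r = 0.969) and the WNT receptor Fzd10 (r = 0.942), and Lhx1 most like Stat5b (r = 0.95), Rrs1 (r = 0.947) and Eomes (r = 0.913). Mixl1 was most like Sf3b3 (r = 0.94), Evx1 like Usp7 (r = 0.95) and Cdx2 like Vdac2 (r = 0.953). Over all 13 libraries, which fall into 2 stages with a wide gap, Eomes and Lhx1 were nearest to each other (r = 0.989) and Tdgf1 was among the 3 nearest to both (r = 0.985 and 0.986), while Snai1 was nearest to Evx1 (r = 0.967) and Tmem28 to T (r = 0.98). Evx1os was the third nearest to Evx1 (r = 0.957). These are descriptions of few libraries, and with so many genes high values of r arise readily.

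The factors are spread over the genome apart from Mesp1 and Mesp2. In GENCODE M21 on GRCm38, Mesp1 lies at chr7:79792241-79793788 on the minus strand and Mesp2 at chr7:79810727-79813439 on the plus strand, 16938 bases apart and divergent. Their levels did not run in parallel, as Lmo2-/- Flk-1+ replicate 1 had the highest Mesp2 (5.93 FPKM, 40 fragments) and a low Mesp1 (2.58 FPKM, 11 fragments). T lies at chr17:8434423-8442496, Eomes at chr9:118478212-118486132, Evx1 at chr6:52313498-52318378 and Tbx6 at chr7:126781483-126785560, all on the plus strand. Mixl1 lies at chr1:180693043-180697034, Lhx1 at chr11:84518284-84525535, Gsc at chr12:104471209-104473330 and Cdx2 at chr5:147300805-147307270, all on the minus strand. The values cover all transcripts of a gene as the authors assembled them.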

How the data were processed

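RNAseq of Flk-1+ cells and HE1 was used. The authors aligned paired reads with TopHat 2.0.9 to GRCm38, assembled transcripts with Cufflinks 2.0.0 and Cuffmerge 2.1.1, and deposited FPKM per library from Cuffnorm 2.2.1.1 (library normalisation and effective length correction are theirs). The condition table that the authors deposited with FPKM pooled over replicates by Cuffdiff 2.0.1 was used for gene names and loci only. The deposited comparison table holds the authors' fold changes, p-values and q-values and was not used. Per-sample columns left out numbered 0. DNaseI and ChIP data were not analysed here.

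The filter kept 13802 of 45250 genes, those that reached 1 FPKM in 2 or more libraries and whose locus exceeded 200 bp. log2(FPKM + 1) was fitted by limma 3.58.1 in R 4.3.3 (mean-variance trend, 5 groups). The 6 pairwise comparisons and the interaction used two-sided tests with Benjamini-Hochberg adjustment over all genes tested. The fit was tested on simulated data. Python 3.11.15 with numpy 2.4.6 and pandas 2.3.3 did the rest. Exact permutation tests compared means of log2(FPKM + 1).

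The factors and the gene lists were chosen with earlier results of these data known. All 10 factors were named, and from each other list at most the 3 genes with the largest difference among its calls, or without calls among those with a mean FPKM above 10 and libraries that did not overlap. Wnt3, Cdx1, Cdx4, Elf5, Krt7, Tpbpa, Gata3, Itga2b and Evx1os were named after their values were seen. Fragments were estimated for genes of 1 transcript from FPKM multiplied by the transcript length less 150 bases, an offset set after the values were seen; 15 of 15 values under 10 fragments came within 0.1 of a whole number. They served as a description only. The FPKM give no depth, so no counting interval is given. Alternatives were another pseudocount, other filters, no FPKM criterion, quantile normalisation, a common median, groups fitted alone, no trend, weights per library, a block for the replicate number, and leaving out single libraries.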

Additional observations from a re-analysis of the deposited data

How the results depend on the processing

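Of the differences of the factors under the alternatives, 956 kept their direction and their side of the threshold, 38 turned in sign, 7 became calls and 8 lost one. In the 3 comparisons of Flk-1+ groups 0 factors were called under every alternative. With no FPKM criterion 9 factors were called between the Lmo2-/- stages, as were 3524 of all 13802 genes. Between WT and Lmo2-/- HE1 0 were called with a common median, with the groups alone and with array weights, and leaving out libraries gave 0 to 1; the cause was not tested for array weights, while the groups alone left 4 libraries. In the interaction leaving out libraries gave 0 to 1. Signs changed in differences that were not called. Evx1 in Tal1-/- against WT Flk-1+ cells was 0.08 with array weights and -0.28 to 0.33 on leaving out libraries. Gsc in Tal1-/- against Lmo2-/- cells was -0.25 with a pseudocount of 0.1 and -0.03 to 0.55 on leaving out libraries. Cdx2 between the WT stages was 0.25 with quantile normalisation, 0.07 with the replicate block and -0.20 to 0.17 on leaving out libraries. Lhx1 between the HE1 groups was 0.17 with quantile normalisation and -0.10 to 0.08 on leaving out libraries, and Evx1 -0.08 to 1.90. In the interaction Eomes was -1.24 with a pseudocount of 0.1 and Mesp1 and Gsc were 0.03 and 0.12 with quantile normalisation; on leaving out libraries Eomes ranged from -0.13 to 0.55, Mesp1 from -0.41 to 0.20, Mesp2 from -0.78 to 0.21, Gsc from -0.36 to 0.06 and Tbx6 from -0.11 to 0.54. On leaving out libraries in Lmo2-/- against WT Flk-1+ cells Mesp1 ranged from -0.20 to 0.41, Mesp2 from -0.21 to 0.78, Gsc from -0.06 to 0.36 and Tbx6 from -0.54 to 0.11, and in Tal1-/- against Lmo2-/- cells T from -0.66 to 0.19, Eomes from -0.27 to 0.07 and Lhx1 from -0.49 to 0.11. The cause of these sign changes was not tested. Replicate numbers showed no pairing of the libraries: same-numbered libraries correlated between -0.184 and 0.169 in their deviations from the group means. The replicate block changed no call among the 10 factors. Over all genes it called 704 against 964 in the WT step and 2189 against 2707 in the Lmo2-/- step. Levels below 10 FPKM rest on few fragments, and Lmo2-/- HE1 replicate 1, the library that stood apart, limits what can be read from HE1.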
